A study of Blattella germanica with 16 samples.

Results

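Fatty acid oxidation genes and peroxisome genes of the German cockroach Blattella germanica were followed in the fat body of adult females. Fat body is the insect tissue that stores lipid and carries out much of the intermediary metabolism that liver and adipose tissue share in vertebrates. The genes were taken by product name: acyl-CoA dehydrogenases, enoyl-CoA and hydroxyacyl-CoA enzymes, 3-ketoacyl-CoA thiolase, the trifunctional enzyme, carnitine transferases, electron transfer flavoprotein, acyl-coenzyme A enzymes, and products named after the peroxisome. Product names with reductase, lipase or desaturase, or with very-long-chain enoyl, were left out. This gave 45 genes of the 28676 in the table. The names matched 49, and 4 were left out: art-1, a putative very-long-chain enoyl-CoA reductase, and 3 ETFDH genes, whose annotation as an oxidoreductase contains the word reductase. The gene desat1, annotated as a conjugase that acts on an unsaturated acyl-CoA, was caught only by the enoyl-CoA in its name.

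The females received double-stranded RNA (dsRNA), which sets off RNA interference against the matching transcript. It was directed against insulin receptor InR1 (dsInR1), InR2 (dsInR2) or InR3 (dsInR3), or was a control (dsMock), and every group therefore carried injected dsRNA. Each female had 2 injections of 2 µg. By the series design the injections fell on day 1 of carrying the egg case and 7 days after it, the egg case was taken off on day 12, and tissue was dissected on day 5 of reproductive cycle 2. The treatment protocol instead counts 12 and 5 days between the injections and RNA extraction, and the difference was not resolved. Each group had 4 libraries, and how many animals went into a library is not stated, so the p-values reflect only how much these libraries vary, which may be technical. The question was how each receptor's dsRNA changed these genes and how far the changes differed.

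In mitochondrial β-oxidation, an acyl-CoA is dehydrogenated, hydrated, dehydrogenated again and cleaved by a thiolase, and the shortened acyl-CoA re-enters the cycle. Long acyl chains reach the enzymes through the carnitine shuttle, and electrons from the first step pass to the respiratory chain through electron transfer flavoprotein. Peroxisomes run a parallel cycle in which acyl-CoA oxidases take the first step and produce hydrogen peroxide, which catalase removes. Peroxisomes take up their enzymes from the cytosol with the help of proteins called peroxins. In insects, lipid stored in the fat body supports flight, starvation and egg production.

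Library totals ran from 15.3 to 23.7 M reads. Of the annotated genes only InR names an insulin receptor, without saying which of the 3 it is, and it was at 52.8 ± 1.70 CPM in dsMock and 5.90 ± 1.86 CPM in dsInR2 (CPM, a gene's reads per unit of TMM-corrected library size; SD, n = 4). With dsInR1 it was at 48.9 ± 2.62 CPM and with dsInR3 at 38.5 ± 6.41 CPM. Whether dsInR1 and dsInR3 lowered their own targets could therefore not be checked. The unnamed gene C0J52_15443 took 51.1 to 58.8% of reads in dsMock and at most 6.99% in dsInR2, so the remaining genes share very different parts of each library. TMM scaling corrects for such shifts (scaling factors 0.843 to 0.992 in dsMock and 1.16 to 1.52 in dsInR2). Among fat body markers, apolipophorin, hexamerin and transferrin together ran from 22877 to 37484 CPM in dsMock and from 59107 to 105134 CPM in dsInR2, with 2 of the 3 higher and 1 lower. No product name in the table holds vitellogenin. Of the other lists, muscle markers summed to 141 to 274 CPM in dsMock and 168 to 387 CPM in dsInR2, with 1 of 16 tested higher and 2 of 18 at 0 in each. Ovary and germline markers summed to 95.0 to 165 and 75.3 to 124 CPM, with 1 of 4 tested higher and 2 lower, and 0 of 5 at 0 in dsMock and 1 of 5 in dsInR2. Gut and Malpighian tubule markers summed to 52.4 to 185 and 29.6 to 139.7 CPM, with 1 of 4 tested higher, without overlap, and 8 and 10 of 17 at 0. Epidermis and trachea markers stayed at or below 19.3 CPM, with 1 of 5 tested higher, without overlap (log2 fold change 3.67), and 34 of 46 at 0 in both groups. Nervous tissue markers stayed at or below 10.99 CPM in both groups, with 0 of 7 tested called and 4 of 11 at 0. Their part in the results was not tested. In whole fat body, fewer cells of a type and less RNA per cell cannot be told apart.

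Of the 45 genes, 41 had enough reads to be tested. Paox_0, annotated as a polyamine oxidase, had 0 reads in all 16 libraries, Crat at most 5 reads, Cpt1a_0 at most 10 and Cpt1a_1 at most 21, and these 4 did not pass the filter on low counts. CPM does not correct for length, so levels of different genes are not compared per length. Sums, shares and ratios over genes carry the same limit and are compared only between groups.

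With dsInR2, genes of each step of mitochondrial β-oxidation fell, but at the hydration step Echs1_1 rose while Echs1_0 fell, and HADHA, a subunit of the trifunctional enzyme, did not pass. Of the 41 tested genes, 16 were lower than in dsMock (39.0%, against 14.7% of all 10536 genes tested) and 5 were higher (12.2%, against 17.6% of all genes). The fitted values come from edgeR's quasi-likelihood test with Benjamini-Hochberg adjustment over all tested genes. For 15 of the lower and all 5 of the higher genes, the 4 dsInR2 libraries did not overlap the 4 dsMock libraries (of all genes, 14.4% lay lower and 15.7% higher without overlap). The median log2 fold change was -0.23 for the 41 genes and 0.04 for all tested genes. Grouped by the compartment that background knowledge gives, 10 of 18 tested mitochondrial genes fell and 3 rose (median log2 fold change -0.87), and 5 of 20 peroxisomal genes fell and 2 rose (median -0.03); these 2 groups were not tested against each other. Summed over the mitochondrial genes, dsMock libraries held 2000.2 to 2330.3 CPM and dsInR2 libraries 1086 to 1418 CPM, and the sums of the peroxisomal genes, 619.8 to 694 and 582 to 717 CPM, overlapped. Such sums weigh genes with many reads most. ACADSB ran from 296 to 452 CPM in dsMock and from 58.4 to 163 CPM in dsInR2. For ACAA2 these ranges were 189 to 389 and 30.5 to 64.1 CPM. HADHA did not fall, at 290.2 to 321 and 319.6 to 397 CPM.

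**Figure D1:**
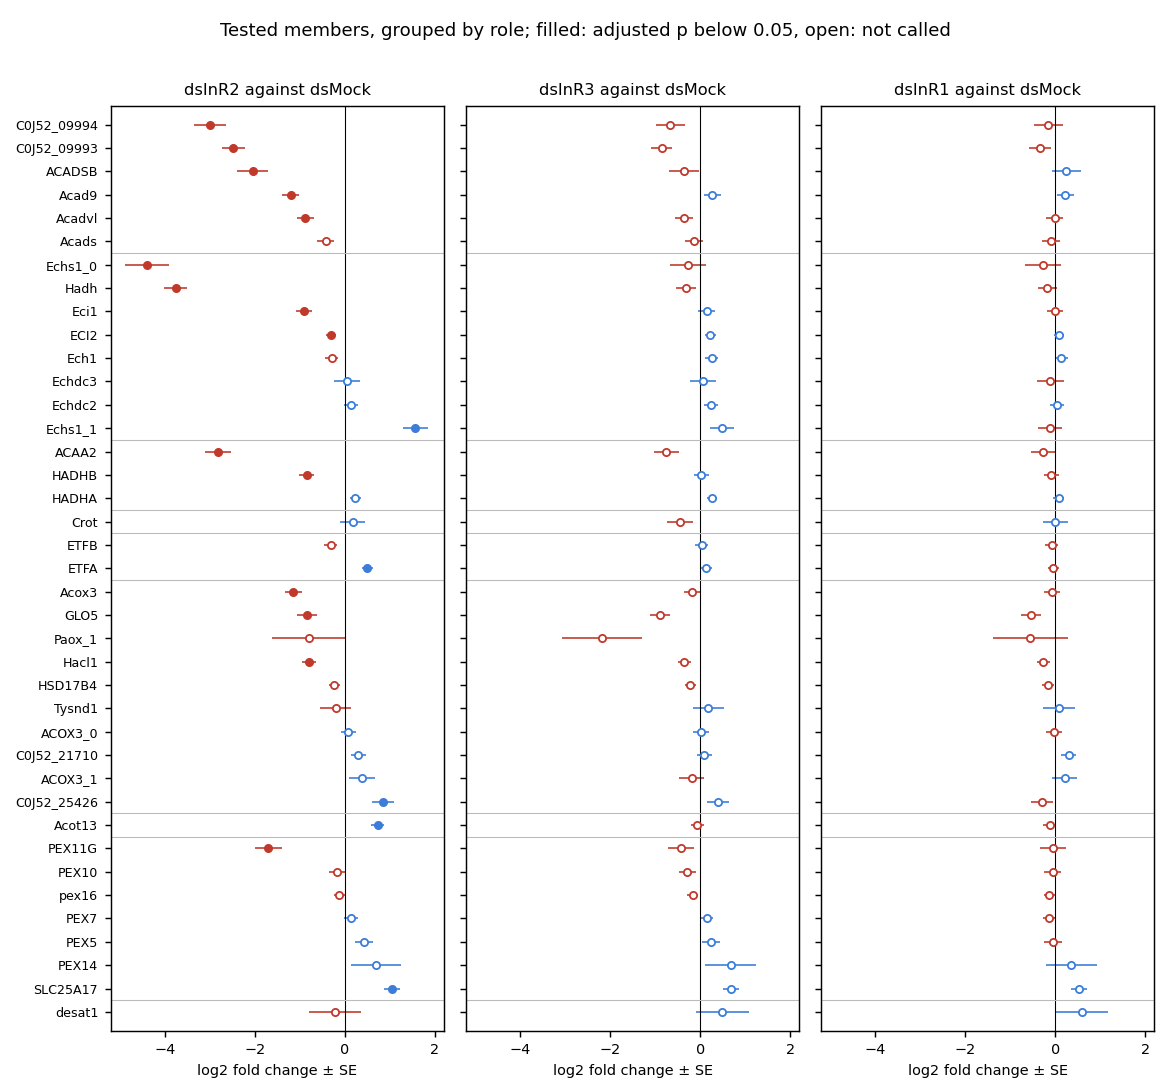
Log2 fold change with its standard error for 39 of the 41 tested genes in dsInR2, dsInR3 and dsInR1 against dsMock (3 panels, 1 row per gene, grouped by role; filled points passed the adjusted p threshold of 0.05). With dsInR2, 15 filled points lie left of zero, down to -4.40 for Echs1_0, and 5 lie right of it, whereas the other panels hold open points only.

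The acyl-CoA dehydrogenases take the first step of the mitochondrial cycle. With dsInR2, 5 of 6 were lower (83.3%, against 14.7% of all genes) and none was higher. C0J52_09994, a putative medium-chain enzyme, gave 301, 270.2, 163 and 228 CPM in dsMock libraries 1, 3, 4 and 5, the order used for this group throughout. In dsInR2 libraries 1, 4, 7 and 8, again the order used throughout, it gave 16.5, 30.3, 44.5 and 28.7 CPM (log2 fold change -3.00, SE 0.35, edgeR adjusted p = 3.1e-05). Its highest dsInR2 library was thus far below its lowest dsMock library, and the fitted difference was 8.01-fold. C0J52_09993, of the same annotation, lies 7293 bases from it on contig PYGN01000349.1 (Bger_1.1) with no gene between them. It went from 78.2, 70.3, 51.1 and 62.6 CPM in dsMock to 12.5, 9.42, 14.2 and 10.99 CPM in dsInR2 (log2 fold change -2.48, SE 0.25, edgeR adjusted p = 9.7e-06). Both neighbours were lower in each dsInR2 library than in any dsMock library. Their sequences were not compared, and if the sequences are alike, shared reads could have been split by the counting. ACADSB, which in mammals also serves isoleucine breakdown, gave 296, 452, 418 and 424 CPM in dsMock and 65.2, 58.4, 163 and 96.5 CPM in dsInR2 (log2 fold change -2.05, SE 0.34, edgeR adjusted p = 3.8e-04). In dsInR1 its library 2, at 225 CPM, stood below the other 3, at 514 to 595 CPM.

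Acad9, whose mammalian counterpart also helps to assemble respiratory complex I, gave 82.0, 64.6, 64.7 and 73.1 CPM in dsMock and 31.8, 32.5, 37.4 and 22.2 CPM in dsInR2, without overlap (log2 fold change -1.20, SE 0.19, edgeR adjusted p = 2.7e-04). The very long-chain enzyme Acadvl, named after its values were seen, ran from 129 to 174 CPM in dsMock and from 68.9 to 92.8 CPM in dsInR2 (log2 fold change -0.88, SE 0.19, edgeR adjusted p = 0.0026). The short-chain enzyme Acads did not pass (log2 fold change -0.43, SE 0.20, edgeR adjusted p = 0.11), with 29.0, 17.2, 21.8 and 14.7 CPM in dsInR2 against 24.2 to 30.2 CPM in dsMock. Its library 1 matched dsMock and the other 3 lay lower; without library 1 the difference passed (edgeR adjusted p = 0.0163).

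The genes of the middle steps, hydration and the following dehydrogenation, held both the largest fall and the largest rise. Of 8 tested, 4 were lower and 1 was higher (50% and 12.5%, against 14.7% and 17.6% of all genes). Hadh, the dehydrogenase of medium and short hydroxyacyl-CoAs, had 18.3, 16.9, 15.1 and 12.5 CPM in dsMock and 0.957, 1.30, 1.602 and 0.750 CPM in dsInR2 (log2 fold change -3.76, SE 0.25, edgeR adjusted p = 4.0e-07). The fitted fall was 13.5-fold, from 19 to 44 reads per dsInR2 library, and it had the smallest adjusted p of the 41 genes. The other groups stayed near dsMock, at 12.0 to 16.6 CPM in dsInR1 and 8.38 to 16.4 CPM in dsInR3.

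A pair of genes annotated as enoyl-CoA hydratase, which adds water across the double bond, moved in opposite directions. Echs1_0 gave 21.2, 9.58, 8.30 and 6.54 CPM in dsMock and 0.504, 0.589, 0.291 and 0.750 CPM in dsInR2, where it had 8 to 21 reads per library (log2 fold change -4.40, SE 0.48, edgeR adjusted p = 1.9e-05). Echs1_1 gave 46.7, 54.0, 53.8 and 27.6 CPM in dsMock and 170.1, 90.8, 158 and 119.6 CPM in dsInR2 (log2 fold change 1.56, SE 0.27, edgeR adjusted p = 5.3e-04). Neither gene's dsInR2 libraries overlapped its dsMock libraries. As a share of the reads of both genes, Echs1_0 made up 13.4 to 31.2% in dsMock libraries, 10.02 to 26.5% in dsInR1, 4.34 to 24.1% in dsInR3 and 0.184 to 0.644% in dsInR2. The lowest dsInR3 share was that of library 3. The genes lie on different contigs, Echs1_0 on PYGN01001707.1 from 55644 to 67293 and Echs1_1 on PYGN01001426.1 from 96771 to 125870.

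Eci1, an isomerase that shifts double bonds so that unsaturated chains can enter the cycle, gave 83.6, 96.1, 86.5 and 65.1 CPM in dsMock and 62.5, 33.8, 41.1 and 39.3 CPM in dsInR2 (log2 fold change -0.91, SE 0.19, edgeR adjusted p = 0.0017). Library 1 of dsInR2 was close to the lowest dsMock library, and the other 3 were well below it. The related isomerase ECI2, named after its values were seen, changed least among the called genes (log2 fold change -0.31, SE 0.11, edgeR adjusted p = 0.046), and its call was lost when dsInR2 library 1, 4 or 8 or dsMock library 1 or 5 was left out. Ech1, Echdc2 and Echdc3 did not pass, with log2 fold changes of -0.29, 0.13 and 0.05.

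At the last step of the cycle, the thiolase ACAA2 fell strongly. It gave 389, 304, 189 and 352 CPM in dsMock and 37.5, 30.5, 64.1 and 42.2 CPM in dsInR2, a 7.08-fold difference (log2 fold change -2.82, SE 0.29, edgeR adjusted p = 1.1e-05). In dsInR3 the libraries 3, 5, 6 and 7 held 133, 172, 239 and 190.5 CPM. Libraries 6 and 7 thus lay within the dsMock range, and libraries 3 and 5 between the dsInR2 and dsMock ranges. The difference of dsInR3 from dsMock did not pass (log2 fold change -0.75, SE 0.27, edgeR adjusted p = 0.20).

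The subunits of the mitochondrial trifunctional enzyme, which joins the last steps for long chains in a complex of alpha and beta chains, parted. HADHB, the beta subunit with the thiolase, gave 243, 297, 273 and 234 CPM in dsMock and 181, 106, 168 and 124 CPM in dsInR2 (log2 fold change -0.85, SE 0.17, edgeR adjusted p = 0.0012). HADHA, the alpha subunit, gave 290.2, 321, 306 and 317 CPM in dsMock and 338, 397, 394 and 319.6 CPM in dsInR2, a difference that did not pass (log2 fold change 0.23, SE 0.12, edgeR adjusted p = 0.15). Each dsInR2 library of HADHB lay below each dsMock library, while for HADHA 3 of the 4 dsInR2 libraries lay above all dsMock libraries. Within a dsMock library, HADHA had 1.08 to 1.36 reads per HADHB read, and within a dsInR2 library 1.87 to 3.73. The ratio ran from 1.13 to 1.82 in dsInR1 and from 1.25 to 1.54 in dsInR3. This ratio needs no scaling between libraries; it and the other ratios were chosen after the values were seen and were not tested.

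**Figure D2:**
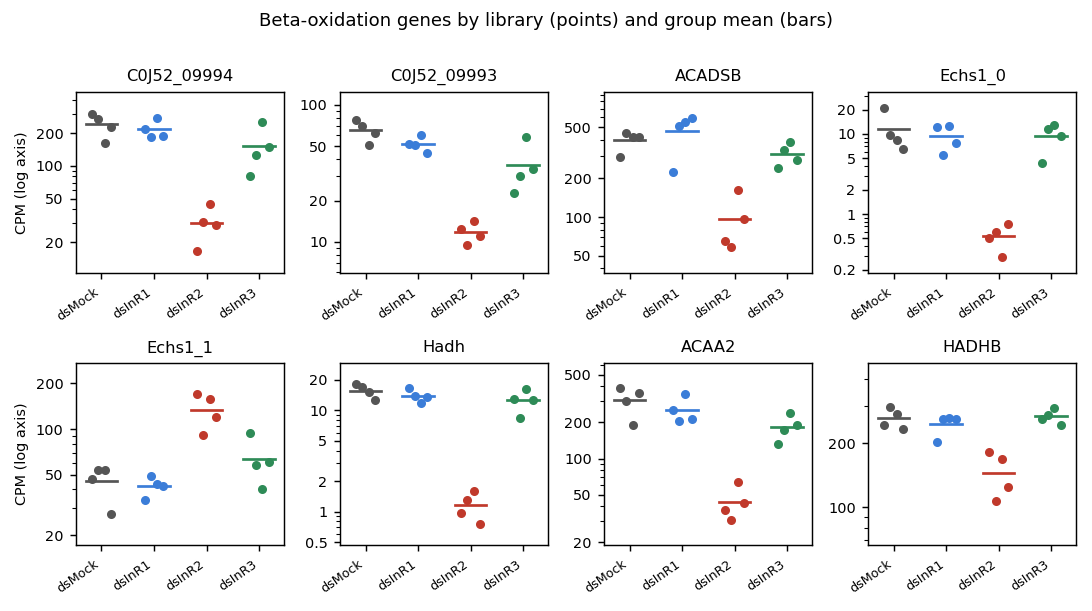
CPM on a log axis of 8 mitochondrial β-oxidation genes in each library (points) and the group mean (bars), 4 libraries per group. In 7 of the 8 panels the dsInR2 points lie below the dsMock points, and in that of Echs1_1 they lie above, at 90.8 to 170.1 CPM against 27.6 to 54.0 CPM.

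Electron transfer flavoprotein takes the electrons of the acyl-CoA dehydrogenases and is built from an alpha and a beta chain. ETFA, the alpha chain, gave 46.6, 46.5, 49.0 and 45.3 CPM in dsMock and 79.8, 63.8, 60.5 and 59.96 CPM in dsInR2, a rise with no overlap (log2 fold change 0.49, SE 0.12, edgeR adjusted p = 0.0059). ETFB, the beta chain, gave 96.4, 85.0, 98.3 and 68.3 CPM in dsMock and 78.7, 61.9, 68.7 and 70.5 CPM in dsInR2, which overlapped (log2 fold change -0.31, SE 0.15, edgeR adjusted p = 0.11). Without dsMock library 5 its fall passed (edgeR adjusted p = 0.0458). Within a library there were 0.483 to 0.663 ETFA reads per ETFB read in dsMock, 0.526 to 0.573 in dsInR1, 0.546 to 0.626 in dsInR3 and 0.851 to 1.03 in dsInR2. As for the trifunctional enzyme, the dsInR2 ratios lay above those of every library of the other groups.

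**Figure D3:**
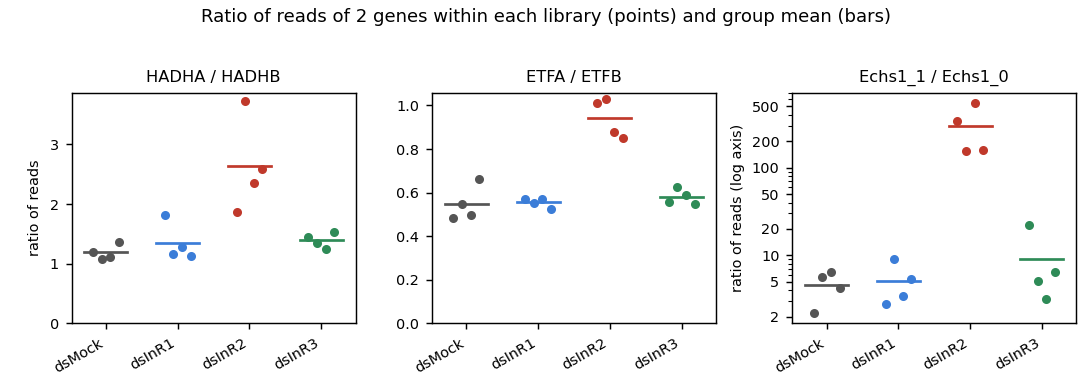
Reads of 1 gene per read of another within each library (points) and the group mean (bars) for HADHA and HADHB, ETFA and ETFB, and Echs1_1 and Echs1_0, the last on a log axis. The dsInR2 points lie above those of all other groups in each panel, at 154 to 542 Echs1_1 reads per Echs1_0 read against 2.21 to 6.48 in dsMock.

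Of the carnitine transferases, which pass acyl groups across membranes as carnitine esters, only Crot had enough reads to test. Crot, the octanoyl transferase of peroxisomes, was at 1.25, 0.979, 2.11 and 2.68 CPM in dsMock and 1.66, 2.003, 2.22 and 1.999 CPM in dsInR2 (log2 fold change 0.17, SE 0.28, edgeR adjusted p = 0.69). Cpt1a_1, named after its values were seen and annotated as the palmitoyl transferase that opens the mitochondrial route, had 1.05, 0.559, 0.492 and 0 CPM in dsMock and 0, 0.118, 0.146 and 0.4997 CPM in dsInR2, at most 21 reads in a library. It lies 738 bases from Cpt1a_0 on contig PYGN01000518.1, with no gene between them. Too few reads were present in either to test a difference. Acot13, a thioesterase that frees fatty acids from CoA, rose from 58.9, 46.8, 41.5 and 51.8 CPM in dsMock to 91.9, 68.3, 72.9 and 95.9 CPM in dsInR2 (log2 fold change 0.72, SE 0.14, edgeR adjusted p = 0.0012). Its libraries did not overlap between these groups.

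Among the peroxisomal enzymes, 3 of 10 tested were lower and 1 was higher with dsInR2 (30% and 10%, against 14.7% and 17.6% of all genes). Acox3, annotated as the acyl-CoA oxidase that in mammals handles branched chains, gave 28.7, 29.8, 31.7 and 28.8 CPM in dsMock and 16.6, 13.0, 14.5 and 9.85 CPM in dsInR2 (log2 fold change -1.14, SE 0.18, edgeR adjusted p = 2.9e-04). Its dsMock libraries were tight and all 4 dsInR2 libraries fell below them. ACOX3_0, of the same annotation and 75370 bases further along contig PYGN01001238.1 with 1 gene between, did not pass (log2 fold change 0.07, SE 0.17, edgeR adjusted p = 0.78). There were 1.26 to 1.603 ACOX3_0 reads per Acox3 read in dsMock and 2.15 to 5.71 in dsInR2, without overlap. C0J52_25426, a putative acyl-CoA oxidase 1 named after its values were seen, gave 56.8, 62.8, 53.5 and 48.0 CPM in dsMock and 122, 63.6, 122 and 90.01 CPM in dsInR2 (log2 fold change 0.85, SE 0.25, edgeR adjusted p = 0.017). Library 4 of dsInR2 lay just above the highest dsMock library, and the call was lost without dsInR2 library 1 (edgeR adjusted p = 0.0507) or without dsMock library 5 (edgeR adjusted p = 0.0506). The remaining oxidases, ACOX3_1 and C0J52_21710, did not pass, with log2 fold changes of 0.38 and 0.30.

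Hacl1, the lyase of the α-oxidation that shortens branched acids in mammals, gave 76.3, 84.5, 68.2 and 91.1 CPM in dsMock and 37.3, 48.1, 44.9 and 54.1 CPM in dsInR2 (log2 fold change -0.80, SE 0.15, edgeR adjusted p = 8.3e-04). GLO5, an oxidase of 2-hydroxy acids, gave 69.3, 79.8, 41.9 and 75.5 CPM in dsMock and 43.8, 28.0, 43.7 and 33.5 CPM in dsInR2 (log2 fold change -0.84, SE 0.22, edgeR adjusted p = 0.0084). The fall of GLO5 passed although its groups overlapped, with dsMock library 4 inside the dsInR2 range. HSD17B4, the enzyme that joins hydratase and dehydrogenase activities of the peroxisomal cycle, gave 199, 196, 159 and 174 CPM in dsMock and 146, 149, 186 and 138 CPM in dsInR2 and did not pass (log2 fold change -0.23, SE 0.13, edgeR adjusted p = 0.19). Tysnd1, a protease that trims imported enzymes, and Paox_1, a polyamine oxidase, stayed at or below 1.57 CPM in every library and did not pass (log2 fold changes -0.20 and -0.80).

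Of the 9 peroxins and membrane proteins, 2 were lower and 1 was higher (22.2% and 11.1%, against 14.7% and 17.6% of all genes). PEX11G, of a family that drives peroxisome elongation and division, gave 4.73, 6.15, 2.88 and 4.98 CPM in dsMock and 0.907, 1.57, 1.71 and 1.53 CPM in dsInR2 (log2 fold change -1.70, SE 0.31, edgeR adjusted p = 6.6e-04). The fall of PEX11G was without overlap. SLC25A17, a carrier of the peroxisomal membrane that in humans moves CoA and adenine nucleotides, rose from 3.49, 3.99, 5.06 and 4.70 CPM to 9.22, 9.50, 8.88 and 7.99 CPM (log2 fold change 1.05, SE 0.18, edgeR adjusted p = 4.4e-04). Its mean also lay between those groups in dsInR1 and dsInR3, at 6.19 ± 1.20 and 6.88 ± 1.24 CPM, without passing against dsMock. Single libraries overlapped: dsInR1 library 7, at 4.42 CPM, lay in the dsMock range and dsInR3 library 3, at 8.67 CPM, in the dsInR2 range.

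PEX5, the receptor for the main peroxisomal import signal and the peroxin with the most reads, gave 137, 81.2, 135 and 134 CPM in dsMock and 213, 183, 138 and 118 CPM in dsInR2, with an overlap (log2 fold change 0.42, SE 0.20, edgeR adjusted p = 0.12). The other receptor, PEX7, and PEX14, PEX10 and pex16, which serve docking, receptor turnover and membrane assembly, did not pass. Their log2 fold changes were 0.14, 0.69, -0.17 and -0.13. For PEX14 the 4 dsInR2 libraries ran from 2.28 to 13.9 CPM, a spread wider than the difference. The accidental match desat1 gave 3.69, 2.52, 0.773 and 0.783 CPM in dsMock and 2.27, 0.353, 1.82 and 2.25 CPM in dsInR2, which overlapped (log2 fold change -0.23, SE 0.58, edgeR adjusted p = 0.81).

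**Figure D4:**
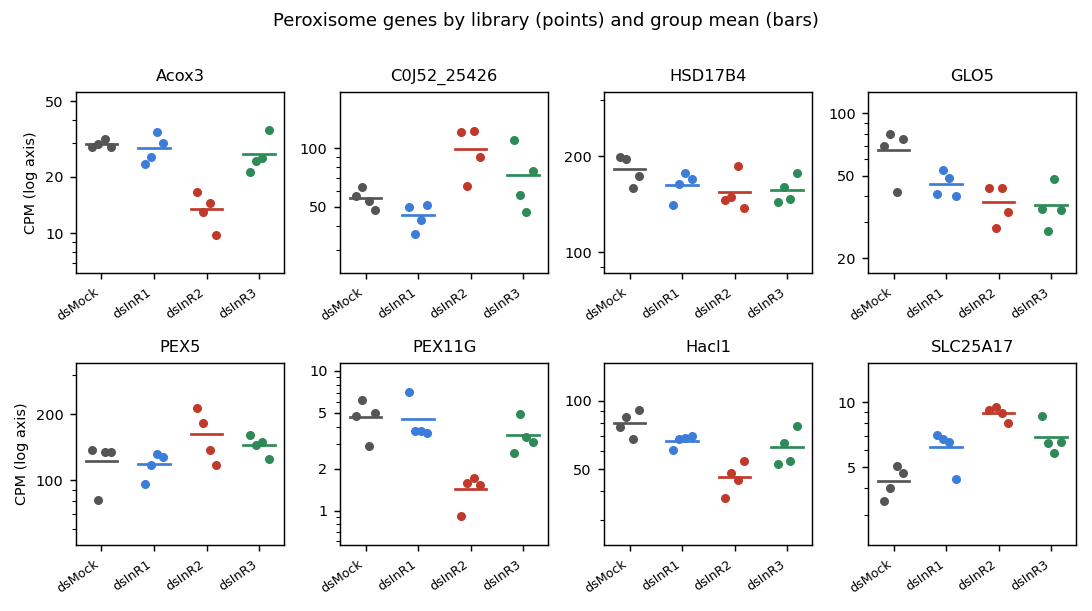
CPM on a log axis of 8 peroxisomal genes in each library (points) and the group mean (bars), 4 libraries per group. With dsInR2, Acox3, PEX11G and Hacl1 lie below dsMock and C0J52_25426 and SLC25A17 above it, while HSD17B4, GLO5 and PEX5 overlap with dsMock.

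Of 40 further genes of the pathway outside the 45, chosen by product name, 28 were tested, and with dsInR2 4 rose (14.3%, against 17.6% of all genes) and 7 fell (25.0%, against 14.7%). The median log2 fold change was -0.33 for the 28 and 0.04 for all genes. The change was largest for Cat, a catalase, which fell from 10693, 9238, 11061 and 8077 CPM in dsMock to 11.3, 3.97, 23.96 and 2.89 CPM in dsInR2 (log2 fold change -9.86, SE 0.78, edgeR adjusted p = 1.7e-06). A further catalase, cat_2, rose from 224, 356, 309 and 262 CPM to 1221, 3001, 2136 and 519 CPM (log2 fold change 2.58, SE 0.43, edgeR adjusted p = 3.7e-04). The sum of Cat and cat_2 in dsInR2 thus stayed far below that of dsMock. Other genes annotated as catalase were not part of this sum. ACAC, the acetyl-CoA carboxylase whose product malonyl-CoA is the building block of fatty acid synthesis and in mammals blocks the palmitoyl transferase, rose from 124, 172, 164 and 224 CPM to 4405, 1350.2, 1859 and 1269 CPM (log2 fold change 3.70, SE 0.54, edgeR adjusted p = 1.5e-04). ACSF2, an acyl-CoA synthetase, rose from 7.32, 2.31, 9.70 and 6.65 CPM to 79.8, 18.5, 57.3 and 46.0 CPM (log2 fold change 2.95, SE 0.52, edgeR adjusted p = 5.6e-04). DBI_1, an acyl-CoA-binding protein, rose from 134, 158, 201 and 169 CPM to 357, 351, 280.0 and 388 CPM (log2 fold change 1.06, SE 0.18, edgeR adjusted p = 4.4e-04). For each of these 5 genes the dsInR2 and dsMock libraries did not overlap.

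With dsInR3, none of the 41 genes passed in edgeR (smallest adjusted p = 0.0767), 7 had an unadjusted p under 0.05, DESeq2 called 3 and limma-voom 0. Of all genes, edgeR called 0.304%, and 14.7% had an unadjusted edgeR p under 0.05. DESeq2 called 292 of all 10536 genes higher and 151 lower. The 3 genes DESeq2 called were GLO5 and C0J52_09993, lower, and SLC25A17, higher. In dsInR3 libraries 3, 5, 6 and 7, GLO5 gave 34.4, 27.0, 48.0 and 34.3 CPM (log2 fold change -0.89, SE 0.22, edgeR adjusted p = 0.077). C0J52_09993 gave 22.7, 30.1, 58.3 and 33.8 CPM (log2 fold change -0.86, SE 0.24, edgeR adjusted p = 0.10), where library 6 lay within the dsMock range. SLC25A17 gave 8.67, 6.50, 5.80 and 6.56 CPM (log2 fold change 0.68, SE 0.18, edgeR adjusted p = 0.088). It was 1 of 3 genes, with HADHA and Ech1, whose dsInR3 libraries all lay above the dsMock libraries (5.62% of all genes lay so). For 17 of the 21 genes called in dsInR2, library 3 was the most extreme dsInR3 library in the direction of the dsInR2 change. The highest such counts in the other groups were 8 for dsInR1 library 7, 9 for dsInR2 library 4 and 9 for dsMock library 4. Without dsInR3 library 3, edgeR still called 0 of the 41. The TMM scaling factor of library 3 was 1.25, against 0.870 to 0.969 in the other dsInR3 libraries and 1.16 to 1.52 in dsInR2. Whether genes outside the 41 share the pattern was not tested. The median log2 fold change was -0.06 for the 41 genes.

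With dsInR1, edgeR called none of the 41 genes, 2 had an unadjusted p under 0.05, and DESeq2 and limma-voom called 0. Of all genes, edgeR called 0%, and 3.29% had an unadjusted edgeR p under 0.05. The log2 fold changes ran from -0.56 to 0.59, with a median of -0.06. GLO5, for example, was at -0.55 (SE 0.22), its dsInR1 libraries at 39.7 to 53.2 CPM. A p that misses the threshold does not show that these genes kept their level, and a fall of the targets of dsInR1 and dsInR3 could not be checked.

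Directly compared, dsInR2 differed from dsInR1 in 5 genes that were higher and 16 that were lower (12.2% and 39.0% of the 41, against 16.8% and 14.3% of all genes). It differed from dsInR3 in 3 higher and 14 lower (7.32% and 34.1%, against 11.6% and 11.3%), or 5 and 16 without dsInR3 library 3. The 2 comparisons share the dsInR2 libraries. Of the 21 genes called against dsMock, 20 were called against dsInR1 and 16 against dsInR3, in the same direction. These genes were selected with the same dsInR2 libraries, so their repeated calls are not independent evidence. The lower genes with the largest differences from dsInR3 were Echs1_0 at -4.13, Hadh at -3.44, C0J52_09994 at -2.34 and ACAA2 at -2.07 on the log2 scale (edgeR adjusted p at most 2.6e-04). The difference in GLO5 between dsInR2 and dsInR3 did not pass (log2 fold change 0.05, SE 0.22, edgeR adjusted p = 0.89). Between dsInR3 and dsInR1, edgeR called 0 of the 41 (smallest adjusted p 0.431), and of all genes 0%. An unadjusted edgeR p under 0.05 was reached by 3 of the 41 and by 9.21% of all genes.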

How the data were processed

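PolyA RNA of fat body was sequenced in 16 libraries. Per the submitters' processing notes, HISAT2, StringTie, FastQC and Trimmomatic were used (no versions), and libraries were made with a stranded mRNA kit, per the labels' protocols. Use of strand in counting and treatment of multiply mapped reads are not given in the sources used here. The authors deposited raw read counts for each of 28676 genes. A further 32 columns of per-library values were not used, so levels of different genes are not compared per length. Column names give the group and a library number that is not the titles' replicate number, so columns were assigned to groups only. The control columns carry another dsRNA name and were taken as dsMock, the only group left. All locus tags matched the RefSeq annotation of assembly Bger_1.1, the source of contig positions.

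Counts were tested with edgeR 4.0.16 in R 4.3.3 (quasi-likelihood test, two-sided, TMM, filterByExpr, 10536 genes, 1 coefficient per group over 16 libraries, Benjamini-Hochberg over all tested genes, threshold 0.05). Fold changes are fitted, with SE = absolute log2 fold change divided by the square root of F. CPM is scaled by TMM. An exact two-sided permutation of 4 against 4 log2 CPM values, whose smallest p is 0.0286, reached that for 20 of the 41 members in dsInR2 against dsMock. That p needs groups without overlap, so the count repeats the one without overlap and is no separate evidence. Of all genes, 14.4% lay lower and 15.7% higher without overlap. DESeq2 1.42.0, limma-voom 3.58.1, other scalings, no filter, only the 2 groups compared and leaving out each library were the alternatives. The edgeR procedure was also run on counts simulated from the fitted means and dispersions, with few genes changed. That simulation lacks the large composition shift of these data, so it does not test the procedure under such a shift. No molecular identifiers are stated, so counts may include PCR copies.

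Members and gene lists were chosen with earlier results of these data known. Roles and compartments are background knowledge. By rule, the text gives per-library values for, in each role, up to 3 called members with the smallest p in dsInR2 against dsMock, the member with the highest dsMock CPM, the member with the largest change, and any called in the other comparisons with dsMock, and for up to 6 further pathway genes. Some genes that the rule names are counted but not reported here by name. The hemocyte marker list matched 0 product names. Replicates are separate samples by the labels.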

Additional observations from a re-analysis of the deposited data

Results flagged for a closer look

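Of 92 groups of 4 libraries (23 members in 4 groups), 3 had a library far from the other 3, where chance alone gives about 1 in 20. In each, the gap to the nearest library exceeded Dixon's critical share of the whole range. In dsInR1, library 2 had HADHB at 203 CPM against 258 to 263 CPM in the others. The same library had PEX11G at 7.11 CPM against 3.58 to 3.72 CPM. In dsMock, library 3 had PEX5 at 81.2 CPM against 134 to 137 CPM.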

How the results depend on the processing

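Against dsMock, dsInR2 gave 5 higher and 15 to 16 lower members under the other tools, scalings and filters, and 4 to 6 higher and 15 to 16 lower with 1 library left out. Of the members and named pathway genes called in dsInR2 against dsMock, 2 lost their call under an alternative run: ECI2 under no filter, with only the 2 groups compared and without some single libraries, and C0J52_25426 without dsInR2 library 1 or dsMock library 5. For dsInR3 against dsMock, DESeq2 gave 1 higher and 2 lower (of all 10536 genes, 292 and 151). Leaving out 1 library gave 0 higher and 0 to 2 lower: 2 without dsInR3 library 6 and 1 without dsMock library 4. The cause was not tested. For dsInR2 against dsInR1, leaving out a library gave 4 to 6 higher and 15 to 17 lower. For dsInR2 against dsInR3 it gave 2 to 5 higher and 13 to 16 lower, with 5 higher without dsInR3 library 3. Genes that were not called changed sign: Crot was at -0.0242 without dsMock library 1 and -0.0237 without dsMock library 3 and ranged up to 0.45 with 1 library left out, and desat1 was at 0.11 without dsInR2 library 4 and 0.26 without dsMock library 1 and ranged down to -0.49. Calls of dsInR2 against dsInR3 were lost under some alternatives for ETFA, Hacl1 and DBI_1, and against dsInR1 for SLC25A17 and Ech1. The exact permutation test reached its smallest p for 20 members with TMM and 19 with edgeR's RLE size factors. No paired analysis was possible because the columns carry library numbers that are not the replicate numbers of the titles. Genes under about 1 CPM rest on few reads in each library.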

Other observations

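A group of genes annotated as putative 4-coumarate--CoA ligase 3, chosen after their values were seen, fell together with dsInR2. In plants, enzymes of this name activate hydroxycinnamic acids with CoA, and their role in the cockroach is not given here. The gene 4CL3_1 fell from 1684, 1297, 1044 and 1493 CPM in dsMock to 80.9, 107, 76.1 and 116 CPM in dsInR2 (log2 fold change -3.86, SE 0.32, edgeR adjusted p = 2.2e-06). The neighbours 4CL3_0 and 4CL3_2, on 1 contig, fell as well (log2 fold change -3.30, SE 0.46, edgeR adjusted p = 1.1e-04; log2 fold change -3.09, SE 0.44, edgeR adjusted p = 1.2e-04). All 3 genes with this name were lower in every dsInR2 library than in any dsMock library (of all genes, 14.4% lay lower without overlap). In dsInR3 4CL3_1 was at 368 to 1256 CPM, lowest in library 3, and did not pass (log2 fold change -0.68, SE 0.28, edgeR adjusted p = 0.27).

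Electron transfer flavoprotein passes electrons to ubiquinone through ETFDH, and its 3 genes were left out of the 45 by the wording of their names. ETFDH_2 fell from 60.4, 67.1, 55.5 and 54.3 CPM in dsMock to 35.7, 23.4, 39.2 and 23.3 CPM in dsInR2 (log2 fold change -0.97, SE 0.24, edgeR adjusted p = 0.0057). ETFDH_0 fell from 12.6, 9.79, 6.68 and 11.3 CPM to 5.997, 4.20, 4.81 and 2.71 CPM, and neither gene's groups overlapped (log2 fold change -1.19, SE 0.24, edgeR adjusted p = 0.0013). ETFDH_1, its neighbour on the same contig, was at 0 in dsMock libraries 3 and 4 and at 8.62 and 9.22 CPM in the other two, and did not pass (log2 fold change -0.84, SE 1.42, edgeR adjusted p = 0.69).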
